A study of Mus musculus with 9 samples.

Results

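The 39 genes of the 4 mouse Hox clusters were followed through ATAC-seq peak lists of 9 melanoma libraries. ATAC-seq marks accessible chromatin by the insertion of a transposase, and a peak is a stretch where insertions pile up over the local background. The genes were chosen by symbol, Hoxa, Hoxb, Hoxc or Hoxd followed by a number, among the 49997 genes of the RefSeq table for GRCm38: 11 in HoxA on chromosome 6, 10 in HoxB on chromosome 11, 9 in HoxC on chromosome 15 and 9 in HoxD on chromosome 2. Each cluster was read from 20 kb before its first gene to 20 kb after its last. These 4 windows held 89 of the 137541 deposited peaks, which merged into 27 of the 32649 regions found over all libraries.

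All libraries came from cells of the B16 melanoma line or a line derived from it, injected into mice and sorted from the tumours on day 15. B16_untreated is B16 without treatment. B16_IFNg is B16 exposed to interferon gamma before injection, for 2 weeks in replicates 1 and 2 and for 3 weeks in replicate 3. Res499, left untreated, is a subline of B16 that is resistant to checkpoint blockade. Each group has 3 libraries. The sort gate and the host mice are not given in the sources used here. The labels do not say that replicates were taken from different mice, and the p-values below therefore speak only of how much these libraries vary. These are bulk libraries, in which fewer cells with an open site and less accessibility per cell cannot be told apart.

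Hox proteins are homeodomain transcription factors that give cells their place along the body axis. Within a cluster the genes lie in a row and are read in the same direction, and their order matches where they act: low paralogue numbers act towards the head, high numbers towards the tail and the tips of the limbs. Polycomb proteins keep the clusters silent where they are not used and Trithorax proteins keep used genes active, and melanocytes descend from the neural crest, a tissue laid down along that axis.

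The sorted cells were checked against marker genes, counting a gene as open where a peak lay within 1 kb of its start, or of either gene end for the 9 of 24 marker genes without a promoter entry (Pmel, Mlana, Sox10, Col1a1 and Pdgfrb among them). Of 7 melanocyte genes, Pmel, Dct and Mitf were open in all 9 libraries, Tyr in 7, Tyrp1 in 5, and Mlana and Sox10 in 1 each. None of 5 leukocyte, 4 endothelial and 3 keratinocyte genes was open in any library. Of 5 fibroblast genes, Col1a1 was open in 7 libraries and Pdgfrb in 1. Per library, 3 to 6 melanocyte and 0 to 2 fibroblast genes were open, and no group lost or gained a marker gene. The part of other cells in the Hox values was not tested. Peak lists held 9221 to 25374 peaks, the shortest in Res499 replicate 2 and the longest in B16_untreated replicate 2.

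Accessibility of the Hox clusters was sparse and lay mostly in HoxA. The clusters held 11 regions in HoxA, 8 in HoxB, 2 in HoxC and 6 in HoxD. Only 4 of the 27 regions had a peak in all 9 libraries, 3 of them in HoxA and 1 in HoxC. A further 7 had a peak in 2 to 7 libraries, and 16 in a single library. The share found in all 9 libraries was 14.8%, beside 18.9% of all regions of the genome, and the share found in 1 library was 59.3%, beside 36.8%. B16_untreated replicate 2, the longest list, alone supplied 8 of the 16 single-library regions. Of those 16, 11 came from B16_untreated, 2 from B16_IFNg and 3 from Res499. The 12022 single-library regions of the whole genome were not split by group. These counts are therefore not read as a group difference of the clusters.

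**Figure D1:**
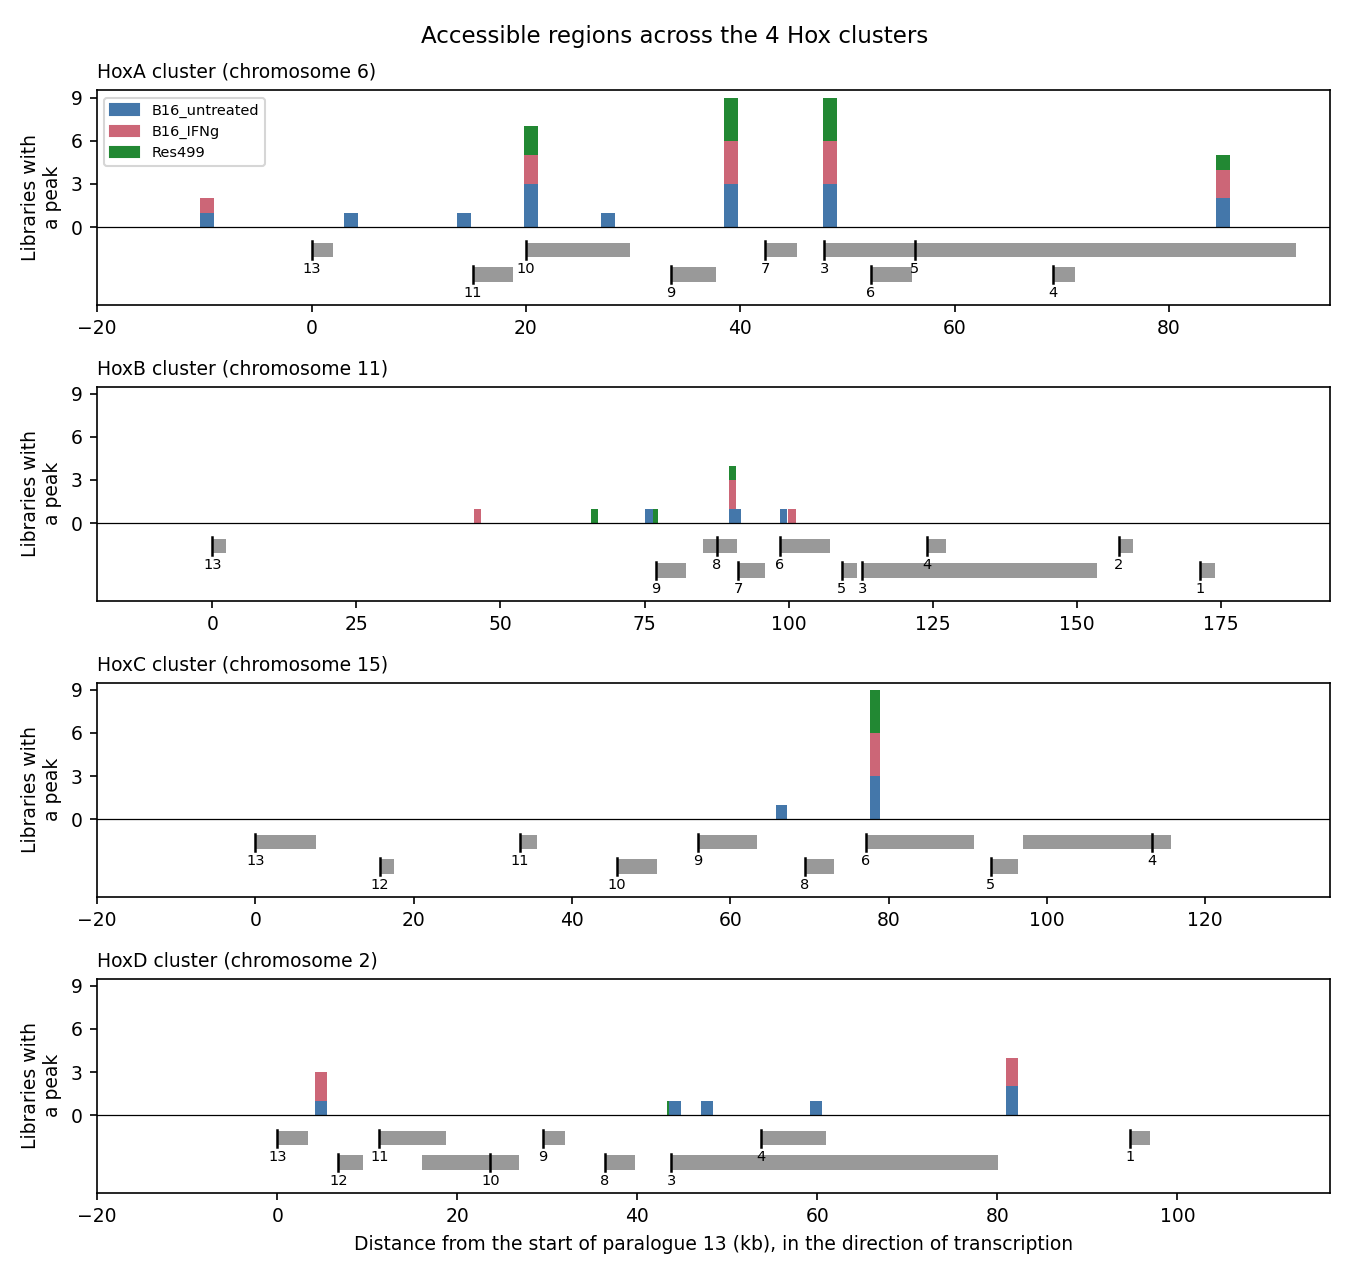
Each panel is a Hox cluster, with the distance from the start of its paralogue 13 gene in kb along the horizontal axis. Bars, drawn with a least width, give the number of libraries of each group with a peak in a region, grey boxes are the Hox genes with their paralogue numbers, and black ticks are their starts. HoxA is drawn up to 95 kb, where 2 of its regions have a peak in 9 libraries, and HoxC has 1 such region.

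Promoter sequences were set beside this accessibility. The 4 promoters below were taken from RefSeq on GRCm38, each running from 250 bases before to 50 bases after an annotated start and printed along the gene's strand with CG dinucleotides in capitals. Hoxa3 is shown because it is the one of 24 Hox promoters, belonging to 22 genes, that overlapped a peak. The other 17 Hox genes have no promoter entry. Among them are Hoxc6, Hoxb7, Hoxb6 and Hoxb9, which had a peak within 1 kb of their start in at least 1 library. No share over all promoters stands beside this count. Hoxa10 is shown at its start beside a peak, and Hoxa9 and Hoxa13 because no library had a peak within 1 kb of them and because they span the range of CG content in HoxA.
Hoxa3: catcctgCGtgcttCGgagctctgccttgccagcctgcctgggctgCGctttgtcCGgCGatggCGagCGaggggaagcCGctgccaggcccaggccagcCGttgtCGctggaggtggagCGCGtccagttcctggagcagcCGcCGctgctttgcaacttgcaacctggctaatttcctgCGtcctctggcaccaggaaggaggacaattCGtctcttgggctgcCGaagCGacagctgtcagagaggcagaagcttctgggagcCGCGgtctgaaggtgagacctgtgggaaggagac
Hoxa10: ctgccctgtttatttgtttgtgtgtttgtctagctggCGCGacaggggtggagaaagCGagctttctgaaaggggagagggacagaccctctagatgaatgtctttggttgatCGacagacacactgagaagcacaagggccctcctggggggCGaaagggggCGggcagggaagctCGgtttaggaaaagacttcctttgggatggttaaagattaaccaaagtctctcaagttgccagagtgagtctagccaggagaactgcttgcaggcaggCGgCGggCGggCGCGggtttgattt
Hoxa9: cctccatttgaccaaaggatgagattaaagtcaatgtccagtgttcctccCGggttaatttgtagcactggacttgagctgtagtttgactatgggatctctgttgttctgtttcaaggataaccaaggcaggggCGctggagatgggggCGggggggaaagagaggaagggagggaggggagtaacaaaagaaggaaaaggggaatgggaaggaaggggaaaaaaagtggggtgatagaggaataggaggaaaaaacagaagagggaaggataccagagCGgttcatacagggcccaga
Hoxa13: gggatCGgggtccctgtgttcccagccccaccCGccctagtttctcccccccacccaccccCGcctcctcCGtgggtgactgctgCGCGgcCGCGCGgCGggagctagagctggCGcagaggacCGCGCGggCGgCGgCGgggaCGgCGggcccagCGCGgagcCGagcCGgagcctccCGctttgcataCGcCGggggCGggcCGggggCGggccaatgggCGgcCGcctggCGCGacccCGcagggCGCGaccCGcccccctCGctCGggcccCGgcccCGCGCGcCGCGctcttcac
They lie on the minus strand at chr6:52213018-52213317, chr6:52240805-52241104, chr6:52227321-52227620 and chr6:52260831-52261130. The Hoxa3 promoter holds 20 CG dinucleotides and overlapped a peak in 7 of 9 libraries. The Hoxa10 promoter holds 12, the Hoxa9 promoter 4 and the Hoxa13 promoter 45, and none of these overlapped a peak in any library.

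Over these 24 Hox promoters the median was 14.5 CG dinucleotides, from 4 to 45, against a median of 7 over all 32851 RefSeq promoters of that length. Both strands were searched for 4 motifs. The TATA box TATAAA was in 4 of 24 Hox promoters (16.7%) and in 13.6% of all. The core homeodomain motif TAATTA was in 2 (8.33%) and in 5.29% of all, and the motif TGATNNAT, bound by Pbx and Hox proteins together, in 4 (16.7%) and in 8.85% of all. A core CTCF motif was in 0 of 24 and in 12 of all 32851 (0.0365%), too rare for the 0 to say anything about the clusters. These are letter matches within 300 bases, and with 24 promoters the shares carry a wide counting error. TGATNNAT can overlap TAATTA in a sequence, so these counts are not exclusive.

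Gene starts in the clusters were open far less often than starts elsewhere. None of the 39 Hox genes had a peak within 1 kb of its start in all 9 libraries, and 9 genes (23.1%) had one in at least 1 library. Of 17470 other protein-coding genes with a promoter entry, 29.1% were open in all 9 libraries and 52.9% in at least 1. Per library, 10.3% ± 4.62 of Hox starts were open (SD, n = 9), against 43.9% ± 4.93 of the others. The difference was -33.6 percentage points, with Hox lower in 9 of 9 libraries (two-sided exact sign-flip permutation test, p = 0.00391, the smallest 9 libraries can give; adjusted p = 0.0156 over 4 such tests).

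Starts came from promoter entries for 22 Hox genes and otherwise from the gene end that faces the higher paralogue, for 17. Among the 22, 4 (18.2%) were open in any library and 0 in all 9. Other genes with a CG-rich promoter, holding at least 20 CG dinucleotides, numbered 6792, and 54.9% were open at such a start in all 9 libraries and 85.5% in at least 1. Of the 11 Hox genes with such a promoter, none was open at it in all 9 and 2, Hoxa3 and Hoxd3, in at least 1. Hoxa10 was open at its other start, whose promoter holds 12 CG dinucleotides.

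**Figure D2:**
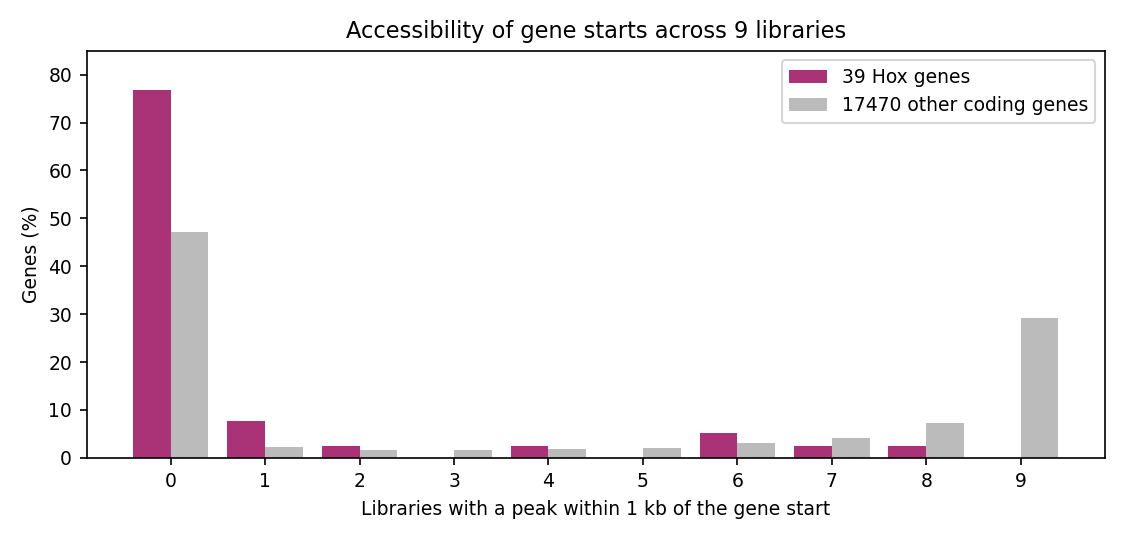
Share of genes in percent (vertical axis) by the number of libraries with a peak within 1 kb of the gene start (horizontal axis), for 39 Hox genes and 17470 other coding genes. No Hox gene reaches 9 libraries, where 29.1% of the other genes lie, and 76.9% of Hox genes are at 0, against 47.1%.

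The peaks that were called in the clusters were also weak within their own lists. Peaks were ranked in each library by the authors' -log10 p and the rank given as a percent of the list, so that 0 is the most significant. The median Hox peak stood at 62.1, 61.7 and 64.6% in B16_untreated, at 61.7, 47.7 and 77.6% in B16_IFNg, while Res499 had 63.8, 70.4 and 75.2%. Only B16_IFNg replicate 2 had its median Hox peak in the more significant part of the list. The mean was 65% ± 8.82 (SD, n = 9), 15 points past the middle of the list (exact sign-flip permutation test, p = 0.00781, adjusted p = 0.0156). The share of Hox peaks within 1 kb of a coding start, 45.5% ± 14.8, did not differ beyond its spread from that of all peaks, 51.2% ± 8.53 (difference -5.67 points, SD 19.6, exact sign-flip permutation p = 0.43). The 2 shares rest on unlike sets of starts. All Hox starts were counted, also those of the 17 Hox genes without a promoter entry, but other genes without an entry were not.

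The clusters differed in how much of their window was covered by peaks. HoxA had 2.06 ± 1 kb covered per 100 kb of window (SD, n = 9), HoxB 0.122 ± 0.121, HoxC 0.239 ± 0.113 and HoxD 0.223 ± 0.247. HoxA exceeded each of the others in 9 of 9 libraries, by 1.94 ± 0.94 kb over HoxB, 1.82 ± 0.911 over HoxC and 1.84 ± 0.848 over HoxD (exact sign-flip permutation tests, adjusted p = 0.00781 each over 6 pairs). HoxB minus HoxC was -0.117 kb per 100 kb (adjusted p = 0.0176, exact sign-flip permutation), but not past the threshold with flanks of 50 kb (-0.0325, adjusted p = 0.457). HoxC and HoxD differed by 0.0161 ± 0.179 (exact permutation, adjusted p = 0.766), and HoxB and HoxD by -0.101 ± 0.186 (adjusted p = 0.206), both within the spread between libraries.

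HoxA peaks numbered 6, 9 and 8 in B16_untreated, 7, 5 and 6 in B16_IFNg, while Res499 had 7, 4 and 5. HoxC had 1 peak in every library but B16_untreated replicate 2, which had 2. HoxB had 0, 3 and 1 peaks in B16_untreated, 3, 1 and 0 in B16_IFNg, while Res499 had 2, 0 and 1, so that 3 libraries had none, 1 in each group. HoxD had 0, 4 and 2 in B16_untreated, 1, 2 and 1 in B16_IFNg, while Res499 had 1, 0 and 0.

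A few genes made the share of open starts larger for the anterior paralogues 1 to 4 than for the posterior paralogues 9 to 13. Per library, 14.8% ± 8.1 of the 12 anterior starts were open, 11.1% ± 8.83 of the 11 central starts (paralogues 5 to 8) and 6.25% ± 4.42 of the 16 posterior starts (SD, n = 9). The anterior share exceeded the posterior share by 8.56 points and was higher in 8 of 9 libraries (exact sign-flip permutation test, p = 0.0117, adjusted p = 0.0156). Res499 replicate 2 went the other way, with 0% anterior and 6.25% posterior. Few genes carry these shares, Hoxa3 and Hoxd3 among the anterior ones, and Hoxa10, Hoxa11 and Hoxb9 as the posterior ones. Anterior and posterior here follow the paralogue number and not the position of the start. The Hoxa3 start used lies between the Hoxa6 and Hoxa7 genes, and the Hoxd3 start between Hoxd8 and Hoxd4. The test counts the same genes again in each library, so it speaks of these libraries and not of paralogue position in general. Among anterior and posterior genes, HoxB had only Hoxb9 open, in 1 library, and HoxC had none.

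**Figure D3:**
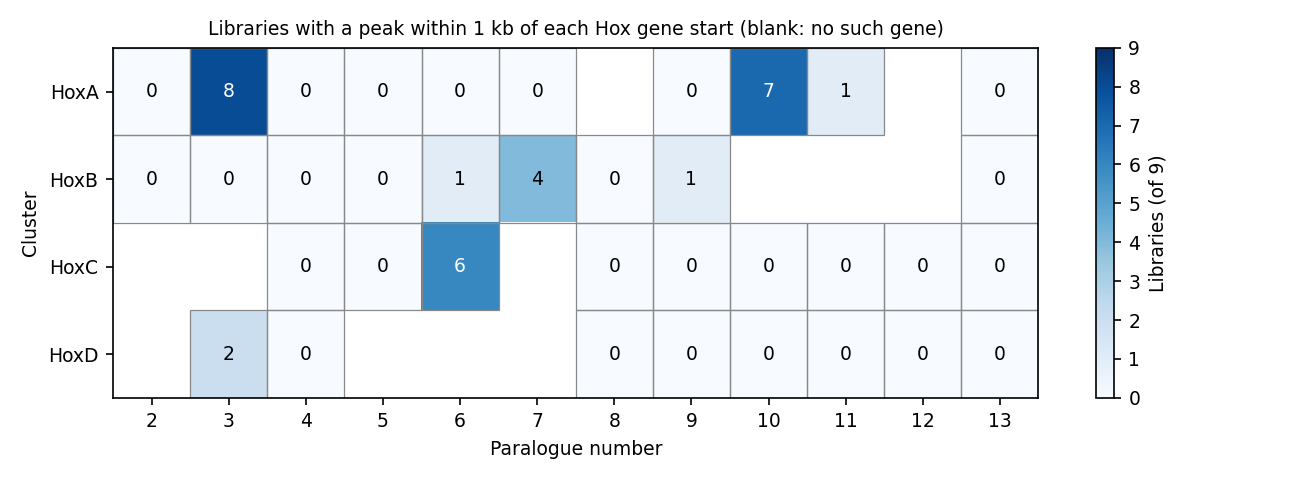
Number of libraries, of 9, with a peak within 1 kb of the start of each Hox gene of paralogues 2 to 13, with clusters as rows and paralogue numbers as columns; blank cells are positions with no gene. The filled positions are Hoxa3 (8), Hoxa10 (7), Hoxc6 (6), Hoxb7 (4), Hoxd3 (2), and Hoxa11, Hoxb6 and Hoxb9 (1 each).

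Among the anterior genes, Hoxa3, which patterns the neck and its glands, had the most often open start of all: 3 libraries of B16_untreated, 3 of B16_IFNg and 2 of Res499. Its region, chr6:52211424-52213659, spans the Hoxa3 start and overlaps the non-coding RNA gene Hoxaas3. It lies between the Hoxa6 and Hoxa7 genes, since the Hoxa3 gene of the table reaches past Hoxa4, Hoxa5 and Hoxa6. The best peak there had a fold enrichment, the authors' ratio of signal to local background, of 4.49, 7.09 and 5.88 in B16_untreated. It was 5.58, 5.04 and 4.25 in B16_IFNg, while Res499 had 4.5, 6.32 and 3.64. These values overlapped between groups, but they mix 2 sites. In B16_IFNg replicate 1 and Res499 replicates 1 and 2 the best peak lay inside the gene, away from the start. Peaks with a summit within 0.5 kb of the start had folds of 4.49, 7.09 and 5.88 in B16_untreated and 5.13, 5.04 and 4.25 in B16_IFNg. Res499 had 4.39 and 3.64 in replicates 1 and 3, below every B16_untreated value, and no such peak in replicate 2.

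This region held up to 3 peaks in a library. A peak covered the start itself in 7 libraries, and in 8 a summit lay within 0.5 kb of it. In 7 libraries a separate summit lay 1 to 2 kb inside the gene. Res499 replicate 2 had the inside peak only, 1440 bp from the start, where it ranked 2041 of 9221, a rank percent of 22.1. The best peak of the region stood at a rank percent of 63.8 in Res499 replicate 1 and 75 in Res499 replicate 3.

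A site inside the Hoxa3 gene body and within LOC115490409, chr6:52175487-52176225, was called in 5 libraries. Its fold was 5.19 and 6.69 in B16_untreated replicates 2 and 3, 6.22 and 4.18 in B16_IFNg replicates 1 and 3, and 3.86 in Res499 replicate 3. It was in 2 libraries of each B16 group and 1 of Res499. Hoxd3 was open in 2 libraries, B16_untreated replicate 2 and Res499 replicate 1. No anterior gene of HoxB or HoxC was open in any library.

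Among the central genes, Hoxc6, a gene of the thoracic axis, was open in 6 libraries: 3 of B16_untreated, 2 of B16_IFNg and 1 of Res499. Its region, chr15:102999071-102999726, lies inside the gene from 845 bp past the start and had a peak in all 9 libraries. The fold was 5.26, 8.97 and 8.39 in B16_untreated, 7.65, 4.06 and 6.87 in B16_IFNg, while Res499 had 5.1, 4.7 and 5.38. The groups overlapped, and the 3 libraries not counted as open, B16_IFNg replicate 3 and Res499 replicates 1 and 2, had their peak just beyond 1 kb from the start. In B16_IFNg replicate 2 the peak was near the end of the list, at a rank percent of 96.1, against 27% in B16_untreated replicate 3. It was the only HoxC region besides one in B16_untreated replicate 2.

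Between Hoxa7 and Hoxa9 a region outside the bodies of the genes in the table, chr6:52221365-52222130, had a peak in all 9 libraries. It lies 2792 bp before the Hoxa7 start, the nearest Hox start. The fold was 5.47, 8.59 and 8.14 in B16_untreated, 7.23, 6.13 and 5.07 in B16_IFNg, while Res499 had 6.78, 4.99 and 3.94. Its rank percent ran from 25.5 in Res499 replicate 1 to 75.2 in Res499 replicate 3, so libraries of 1 group spanned the whole range. Neither Hoxa7 nor Hoxa9 had an open start in any library.

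Hoxb7 was open in 4 libraries, 1 of B16_untreated, 2 of B16_IFNg and 1 of Res499. The region called there in those 4 libraries, chr11:96284436-96284685, lies within Hoxb8, 919 bp before the Hoxb7 start. Its fold was 5.78 in B16_untreated replicate 2, 5.67 and 7.26 in B16_IFNg replicates 1 and 2, and 4.07 in Res499 replicate 3. A nearer site, chr11:96285318-96285554, 50 bp before the start, was called in B16_untreated replicate 2 alone, with a fold of 7.21. Hoxb6 was open in 1 library, of B16_untreated, and the 8 other central genes in none.

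Among the posterior genes, Hoxa10, a gene of the lower trunk, was open in 7 libraries: 3 of B16_untreated, 2 of B16_IFNg and 2 of Res499. Its region, chr6:52240070-52240744, lies inside the gene from 110 bp past the start whose promoter is printed above. The fold was 3.92, 6.59 and 4.72 in B16_untreated, 4.22 and 6.76 in B16_IFNg replicates 1 and 2, and 4.7 and 4.1 in Res499 replicates 1 and 2. The libraries without a peak were B16_IFNg replicate 3 and Res499 replicate 3. Hoxa11 was open in 1 library, of B16_untreated, and Hoxb9 in 1, of Res499. The other 13 posterior genes, every one of HoxC and HoxD among them, were open in none.

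In HoxD, Res499 had 1 peak, in replicate 1 at 52 bp past the Hoxd3 start, and none at the regions called in more than 1 library. A region inside Haglr, a non-coding RNA gene between Hoxd3 and Hoxd1, chr2:74749463-74750202, was called in 2 of 3 B16_untreated, 2 of 3 B16_IFNg and 0 of 3 Res499 libraries. The fold was 4.51 and 6.42 in B16_untreated replicates 2 and 3, and 6.22 and 4.53 in B16_IFNg replicates 2 and 3. A region between Hoxd13 and Hoxd12, chr2:74672973-74673240, was called in 1 of 3, 2 of 3 and 0 of 3, with a fold of 7.42 in B16_untreated replicate 2 and 4.32 and 6.84 in B16_IFNg replicates 1 and 2. The peaks at these sites stood at rank percents of 47.7 to 95.6, and Res499 replicate 2 had the shortest list. In HoxA, a region without a Res499 peak lay 2901 bp beyond Hottip, a non-coding RNA gene at the posterior end. This region, chr6:52270504-52270732, was called in B16_untreated replicate 3 and B16_IFNg replicate 2, with folds of 4.92 and 5.87. Among the 9214 most significant peaks of each library, this region, the Haglr region and the Hoxd13 to Hoxd12 region were each called in 1 library. Under the looser rule given below, 20.5% of all regions were lost in Res499 against B16_untreated and 6.07% against B16_IFNg.

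**Figure D4:**
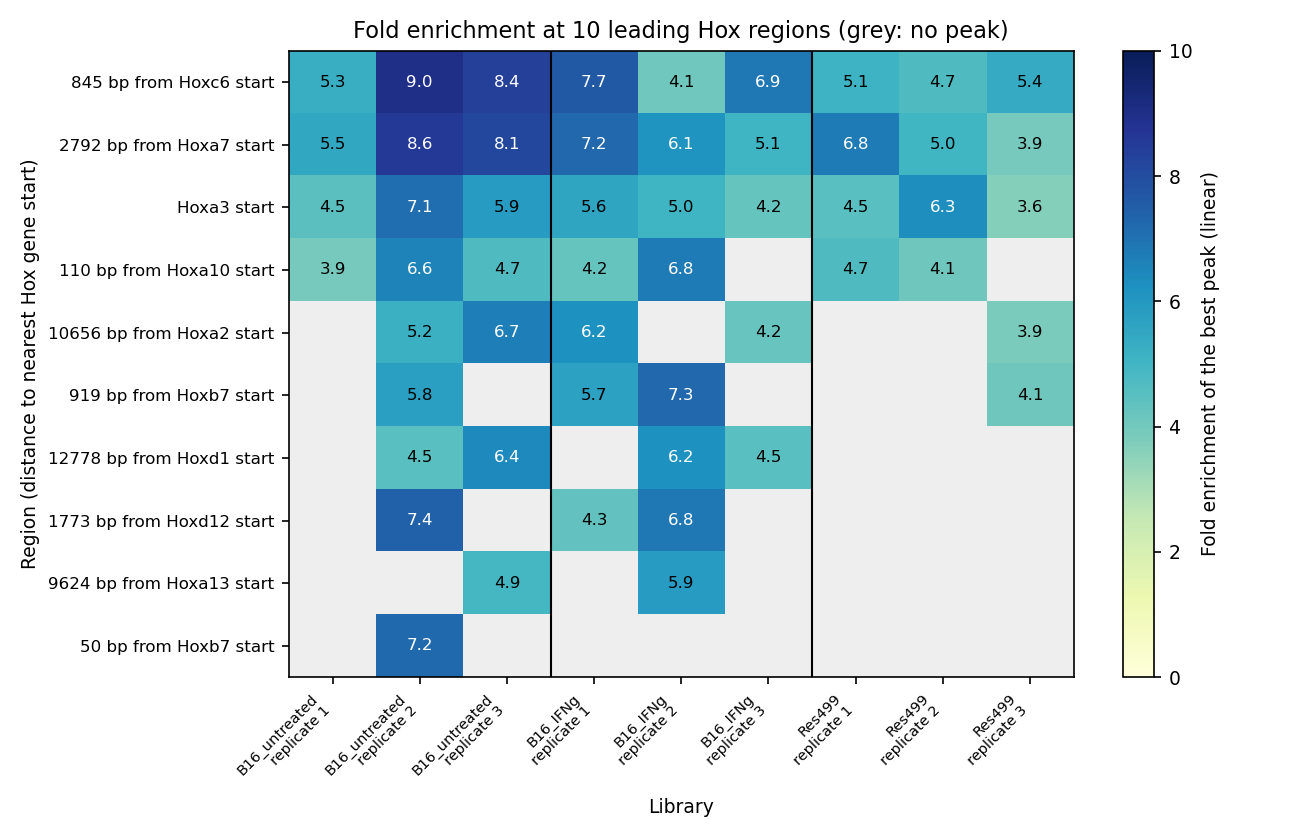
Fold enrichment (colour and printed value, the authors' linear ratio) of the best peak in each library (columns) at 10 of the Hox regions called in the most libraries (rows, named by the distance to the nearest Hox start), with grey where no peak was called. The top 3 rows are filled in all 9 libraries, and the rows near Hoxd1 and Hoxd12 are empty in the 3 Res499 columns.

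The clusters also hold 35 other genes, and 10 had a peak in their body in at least 1 library. Of these, 3 had one in all 9, Hoxaas3 among them. No share over all gene bodies stands beside these counts, so they are not read as few or many. Hotair in HoxC, Hottip in HoxA and Evx2 beside HoxD had none. The clusters' microRNAs of the families miR-10 and miR-196, which target Hox messenger RNAs, are shown because no library had a peak near their loci. Their seeds, bases 2 to 8, are in capitals.
mmu-miR-10a-5p: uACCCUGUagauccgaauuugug
mmu-miR-10b-5p: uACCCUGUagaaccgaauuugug
mmu-miR-196a-5p: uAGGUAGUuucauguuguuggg
mmu-miR-196b-5p: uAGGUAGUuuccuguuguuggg
The first pair shares the seed ACCCUGU and the second pair the seed AGGUAGU (sequences from RefSeq, GRCm38). Mir10a and Mir196a-1 lie in HoxB, Mir196b in HoxA, Mir196a-2 in HoxC and Mir10b in HoxD. No library had a peak within 1 kb of any of these loci or of Mir615 in HoxC, and the nearest region lay 1881 bp from a mature sequence, at Mir10b. No share over all microRNA loci stands beside this, so it is not read as a trait of these loci.

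The group comparison asked whether exposure to interferon gamma or derivation of the resistant line went with a change in Hox accessibility. B16_untreated libraries had 7, 18 and 12 peaks in the windows, B16_IFNg 12, 9 and 8, and Res499 11, 5 and 7. The means were 12.3 ± 5.51, 9.67 ± 2.08 and 7.67 ± 3.06 (SD, n = 3 each), with overlapping ranges. B16_IFNg and Res499 together differed from B16_untreated by -3.67 peaks (exact permutation test over 84 arrangements, p = 0.238, adjusted p = 0.274 over 4 measures), and without B16_untreated replicate 2 the difference was -0.833 (exact permutation p = 0.821). With labels exchanged only within a class of libraries with long or with short shortest peaks, a division read from the lists and not given by the labels, it was -5.75 (exact permutation p = 0.1).

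The number of Hox peaks moved with the length of the list. Across the 9 libraries Pearson's r was 0.936 (permutation p = 0.000353) and Spearman's rho 0.899 (permutation p = 0.00194). It was the only such relation computed. Without the longest and shortest lists, B16_untreated replicate 2 and Res499 replicate 2, r was 0.761 (permutation p = 0.0413) and rho 0.782 (permutation p = 0.0492). Hox peaks are part of the list they are set against, and the long and short classes hold 4 and 5 libraries, under the 6 taken here as the least for a correlation.

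Scaled to the list, the groups did not differ beyond their spread. There were 0.465, 0.709 and 0.596 Hox peaks per 1000 in B16_untreated, 0.739, 0.683 and 0.715 in B16_IFNg, while Res499 had 0.714, 0.542 and 0.595. The difference of both groups from B16_untreated was 0.0747 per 1000 (exact permutation p = 0.274, adjusted p = 0.274), and 0.0333 within classes (exact permutation p = 0.667). In the 9214 most significant peaks of each library there were 3, 4 and 5 Hox peaks in B16_untreated, 5, 8 and 4 in B16_IFNg, while Res499 had 3, 5 and 4 (difference 0.833, exact permutation p = 0.619). The direction thus turned from fewer to more with scaling, and neither passed the test.

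**Figure D5:**
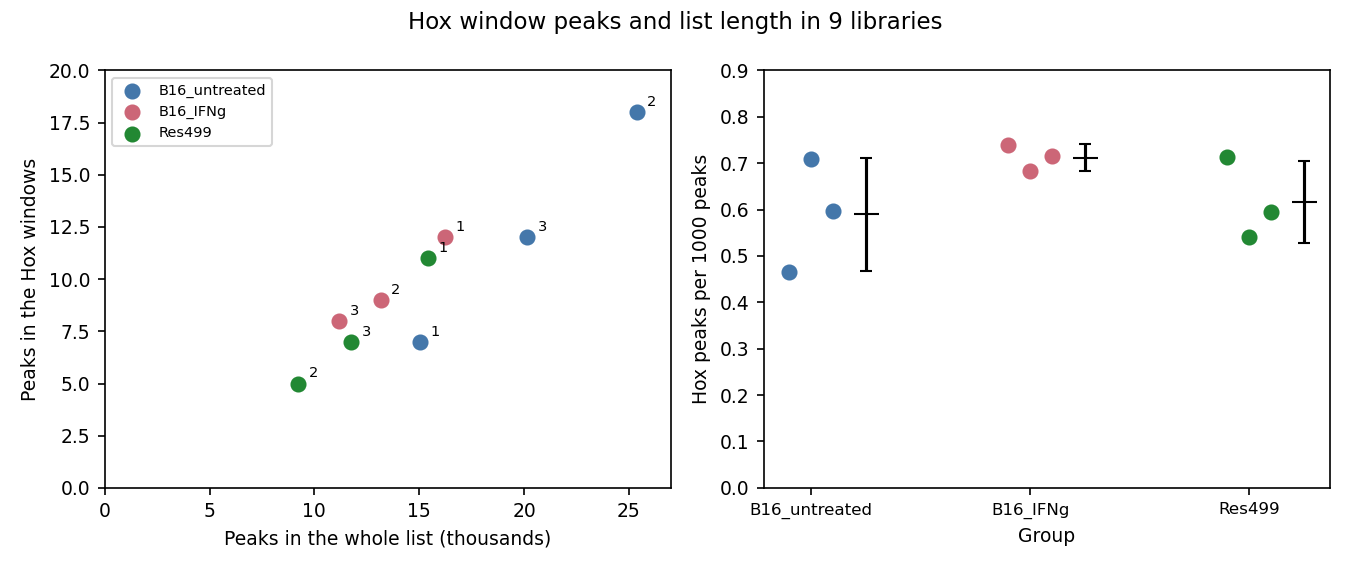
Left, the number of peaks in the 4 Hox windows against the peaks in the whole list (axis in units of 1000 peaks), 1 point per library with its replicate number. Right, Hox peaks per 1000 peaks by group, with the mean and SD as a black bar; the points run from 0.465 to 0.739 and the groups overlap.

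Peaks covered 4.18, 5.51 and 8.36 kb of the windows in B16_untreated, 4.41, 2.55 and 2.92 kb in B16_IFNg, while Res499 had 3.06, 1.55 and 2.91 kb. B16_untreated replicate 3 stood highest, and the 3 Res499 values lay below every B16_untreated value. B16_IFNg and Res499 together differed from B16_untreated by -3.12 kb (exact permutation p = 0.0238), which did not pass after adjustment over the 4 measures (adjusted p = 0.0952). Within the shortest-peak classes the difference was -2.94 kb (exact permutation p = 0.0333). Without B16_untreated replicate 2 or 3 it was -3.37 or -1.94 kb (exact permutation p = 0.0714 for both). In the 9214 most significant peaks of each library it was -1.64 kb (exact permutation p = 0.0119, unadjusted, the smallest 3 of 9 libraries can give). As a percent of all covered length it was -0.00577 points (exact permutation p = 0.369): 0.0589% ± 0.011 in B16_untreated, 0.0571% ± 0.0067 in B16_IFNg and 0.0492% ± 0.00485 in Res499 (SD, n = 3).

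Open Hox starts numbered 4, 7 and 5 in B16_untreated, 4, 5 and 2 in B16_IFNg, while Res499 had 5, 1 and 3. The difference was -2 (exact permutation p = 0.202, adjusted p = 0.274), and -2.69 within classes (exact permutation p = 0.1). For each of these measures, pairs of groups gave exact permutation p-values of 0.1 or more, and 0.1 is the smallest that 3 against 3 allows. No Hox region was gained or lost in any comparison, a gain or loss being a peak in all 3 libraries of a group with none in the 3 of the other. The background was low: 0.0164% of all regions were gained and 2.52% lost in B16_IFNg against B16_untreated, 0.0263% and 3.97% in Res499 against B16_untreated, and 0.147% and 0.611% in Res499 against B16_IFNg. With 24, 25 and 16 Hox regions tested, counts of 0 do not set the clusters apart from these shares.

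With 1 missing or extra library allowed, the Haglr region counted as lost in Res499 against B16_untreated, where 20.5% of all regions were lost and 0.246% gained. The Haglr and Hoxd13 to Hoxd12 regions counted as lost in Res499 against B16_IFNg, where 6.07% of all regions were lost and 2.01% gained. None did in B16_IFNg against B16_untreated, with 15.8% lost and 0.383% gained. In the 9214-peak lists no Hox region was gained or lost either, with 0.398% of all regions gained and 0.611% lost, 0.596% and 0.984%, and 0.399% and 0.557% in the same order of comparisons.

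Most genes whose products work with Hox proteins or control the clusters had an open start in at least 1 library. Where no promoter entry gave a start, either gene end was counted, for 4 of the 9 TALE, 3 of the 23 Polycomb, 4 of the 10 Trithorax and demethylase and 2 of the 6 boundary genes below. Of all other coding genes, read only at promoter entries, 29.1% were open in all 9 libraries and 52.9% in at least 1. Of 9 TALE genes, whose products bind DNA together with Hox proteins, 4 were open in all 9 libraries, 4 in some and 1, Meis2, in none. Those that varied most were Meis1, open in 3, 2 and 1 libraries of B16_untreated, B16_IFNg and Res499, Meis3 in 1, 2 and 0, Pbx2 in 2, 1 and 0, and Pknox2 in 2, 2 and 1. Of 23 Polycomb genes, 14 were open in all 9 libraries and 9 in some. Ezh2, Eed and Suz12, the core of the methyltransferase complex, were in all 9, while Pcgf2 was open in 1, 2 and 0, Rbbp7 in 3, 2 and 1, Cbx6 in 3, 3 and 2, and Cbx7 in 2, 2 and 1.

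Of 10 Trithorax and histone demethylase genes, 4 were open in all 9 libraries, 5 in some and Ash2l in none. Kdm6b, a demethylase of the Polycomb mark, was open in 2, 0 and 0 libraries, Men1 in 3, 2 and 1, and Kdm6a and Kmt2a in 3, 3 and 2 each. Of 6 boundary genes, 3 were in all 9, Ctcf among them, Smc1a was in 3, 1 and 1, Stag2 in 3, 2 and 1, and Rad21 in none. No gene of these lists was gained or lost between groups in any comparison, and no Hox start was either. Of other coding starts, 0.532% were lost and 0.00572% gained in B16_IFNg against B16_untreated, 0.967% and 0.0172% in Res499 against B16_untreated, and 0.218% and 0.0687% in Res499 against B16_IFNg. The lower counts in Res499 stood beside lists of 9221 to 15396 peaks, whose part was not tested.

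Homeobox genes outside the clusters often lacked a peak too. None of the 8 ParaHox, Cdx and Evx genes, the closest relatives and neighbours of Hox genes, was open in any library. Of 41 genes of the other homeobox families, 6 were open in all 9 libraries, 6 in some and 29 in none, 13 of the 41 being read at either gene end; of other coding genes, 47.1% were open in none. Pax3, a regulator of the melanocyte lineage, Dlx1, Six5, Irx3, Irx5 and Otx1 were the 6. Those that varied most were Dlx6, open in 2, 0 and 1 libraries, Six4 in 3, 2 and 1, Dlx2 in 1, 0 and 1, and Lhx4 in 1, 0 and 0.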

How the data were processed

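ATAC-seq was run on 9 libraries of sorted tumour cells, 3 in each of 3 groups. Reads were handled with CASAVA, cutadapt 1.9, Bowtie2 2.2.4 and MACS2 on GRCm38 (mm10), per the submitters' processing notes. The settings of MACS2, and whether reads were shifted for the transposase, are not given in the sources used here, and unshifted reads would move peak edges by a few bases. Each deposited list holds the peaks of 1 library in 10 columns, and replicates were not pooled. Per the file format, the authors deposited for each peak a score, a fold enrichment (a ratio over the local background), a -log10 p and a -log10 q, which is at least about 2 in every list. Here they serve only to describe, order and select peaks inside a list. The lists give no read counts, so depth per library is unknown, and list length stands beside each comparison.

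Overlapping or touching peaks of all libraries were joined into regions. A gene was open with a peak within 1 kb of its start. Libraries whose shortest peak was at least 150 bp formed the long class (B16_untreated 1 and 3, B16_IFNg 3, Res499 3). The labels give no such batch, so the class is an inference from the lists and stands in for one. Groups were compared by two-sided exact permutation of libraries (84 arrangements for 3 of 9, smallest p 0.0119) and clusters or gene sets by exact sign flips over 9 libraries (512 arrangements), with Benjamini-Hochberg adjustment over 4 group measures, 6 pairs of clusters and 4 gene or rank comparisons. Equal lists kept the 9214 most significant peaks. Scripts used Python 3.11.15, numpy 2.4.6, pandas 2.3.3, scipy 1.17.1 and matplotlib 3.10.9 and were tested on simulated data. Values in each library are given for 10 of the 12 regions called in the most libraries (ties by median rank), Hox genes with an open start are named, and 1 gene is counted in the totals but not reported here. Also named are up to 4 genes per companion list whose library counts differ most between groups.

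The members and gene lists were chosen with earlier results of these data known. The comparisons of Hox with other starts, of ranks, of the share of peaks at starts and with list length, the minimum of 20 CG, the share of covered length, the marking out of Ezh2, Eed, Suz12, Meis2, Ash2l, Rad21, Ctcf and the homeobox genes open in all libraries, and the class values other than for peak number were chosen after their values were seen. Same-numbered libraries correlated only weakly (9 pairs, correlations of -0.0155 to 0.0625, 0 over 0.1), with a mean of 0.0244 against -0.0122 for other pairs. Of 9 libraries, 5 correlated best with a library of their own number. Every replicate 3 was in the long class and every replicate 2 in the short class. Replicate numbers were not taken to pair libraries in the main tests, and values with a replicate block are given below.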

Additional observations from a re-analysis of the deposited data

How the results depend on the processing

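Of 205 recomputed values, 187 kept their direction and their side of the threshold or moved little. The threshold was 0.05, adjusted for clusters and unadjusted for the other tests. Among the 187 were all values for HoxA against the other clusters, the anterior against the posterior share, Hox against other starts and the rank of Hox peaks. In equal lists the anterior minus posterior share was 8.1 points, close to the threshold (exact sign-flip permutation p = 0.0469, unadjusted). The difference in peak number turned to 0.833 in equal lists and to 1 in lists of 4607 peaks, and peaks per 1000 to -0.0114 with a -log10 q of at least 5. That filter took open starts to -2.33 (exact permutation p = 0.0357). Covered length was -1.64 kb in equal lists and -3.4 kb with that filter (exact permutation p = 0.0119 for both), ran from -4.04 to -1.94 kb with 1 library left out, was -3.12 kb (exact permutation p = 0.0741) with the replicate block, and -0.00577 points as a percent of all covered length. The block changed no other call, and 5 of 9 libraries correlated best with a library of their own number. HoxB minus HoxC was -0.0325 with 50 kb flanks and -0.151 (adjusted p = 0.0586, exact permutation) in equal lists, HoxB minus HoxD was 0.00612 with 50 kb flanks, and HoxC minus HoxD ran from -0.0156 with 1 library left out to 0.0487, and was 0.148 (adjusted p = 0.075, exact permutation) in equal lists. Gained or lost Hox regions numbered 1 in Res499 against B16_untreated and 2 against B16_IFNg with 1 missing or extra library allowed, and 0 to 1 with 1 library left out, 1 being reached without B16_untreated 1, B16_IFNg 1 or B16_IFNg 3. Over the whole genome, 3648 of 29828, 201 of 19965 and 538 of 21859 regions were lost in Res499 in these settings, in the same order. The causes were not tested. Depth, which is unknown, limits every absence: a site without a peak is uncalled in that list, not shown to be closed. Lists held 9221 to 25374 peaks, and the part of list length in which weak Hox sites were called was not tested.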
